A study of Homo sapiens with 8 samples.

Results

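Band 17q11.2 on the long arm of chromosome 17 holds a run of genes of unrelated function that lie side by side, and 46 of them, from TMEM97 to GOSR1, were followed here in a knockout screen. They were chosen by position, as neighbours, and with their L2FC under erlotinib and osimertinib already known, so the drug comparisons are given as a description. Of the 46, 43 had guides in the table and all 43 were tested, among 17761 tested genes in all. POLDIP2, SLC46A1 and SEBOX had no guides and were not analysed here. The 43 genes carried 4 guides each, or 172 in all, and 166 remained after guides with very low counts were left out. The 6 guides left out belonged to ABHD15, ANKRD13B, FOXN1, NEK8, SLC13A2 and TRAF4, which kept 3 each. KIAA0100 and SGK494 are the older symbols of BLTP2 and RSKR.

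The screen used PC9, an EGFR-mutant line of non-small cell lung cancer that depends on EGFR signalling. All groups were Cas9-expressing PC9 cells carrying the genome-wide guide library TKOv3, and the 4 groups had 2 libraries each. The paper gives the number of cells infected for each treatment condition, so the groups may have been infected separately. In that case drug and infection cannot be told apart. Harvests were made when the drugs were added (T0), after 72 h in DMSO vehicle (untreated), after 72 h in 10 µM erlotinib, and after 72 h in 0.1 µM osimertinib. Erlotinib is a reversible EGFR kinase inhibitor and osimertinib binds the receptor covalently; their doses differed, so their values stand side by side and were not compared with each other. Untreated cells were passaged 1 day into the 72 h, drug-treated cells were not said to be, and the endpoint harvest took live cells. Whether both libraries of a group came from cultures separate since infection is not stated in the sources used here, and the p-values below measure the spread between these libraries, part of which may be technical. Guides were counted from genomic DNA, so whether the knocked out genes are expressed in these cells was not measured.

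In a pooled screen each cell carries a guide that directs Cas9 to cut a single gene, and a guide's share of the reads is read as the share of cells carrying that cut. A guide that becomes rarer can reflect cells that divided more slowly or cells that died, and these cannot be told apart from the counts. Gene values are log2 fold changes (L2FC), the median over a gene's guides less that over the non-targeting guides, which match no human gene. Errors are SDs between the n guides of a gene, and guides to one gene are not replicates of a condition. A gene was called lower or higher where its adjusted p in limma, from the spread between libraries, was under 0.05.

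Library totals were between 32093833 and 39197691 reads. The 166 kept guides of the 17q11.2 genes took 0.2049% and 0.2039% of the reads at T0 and 0.2036% and 0.2048% in untreated. They took 0.1761% in each erlotinib library and 0.1737% and 0.1698% in the osimertinib libraries. Both libraries of each drug thus held a smaller share than every T0 and untreated library. The median count of these guides was 427 and 446 in the T0 libraries and 391 and 417 in the untreated ones. With erlotinib it was 304.5 and 308.5, and with osimertinib 348.5 and 337.5.

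The first comparison, untreated against T0, asks how the knockouts fared during growth without drug. The 17q11.2 genes had a median L2FC of -0.19, beside -0.17 over all genes, and values from -0.55 to 0.06. Of the 43, 25 (58.1%) fell and none rose, beside 46.3% of all genes that fell and 0.0338% that rose. The SD among the 43 values was 0.115, compared with 0.216 over all genes. In 40 genes both untreated libraries lay below both T0 libraries, which held for 79.9% of all genes, and in 1 gene, TAOK1, both lay above, which held for 1.09%. The count of 25 rested on all libraries, as it was between 9 and 16 when any T0 or untreated library was left out.

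SUPT6H, a histone chaperone that travels with elongating RNA polymerase II, fell the most, with an L2FC of -0.55 ± 0.27 (n = 4, limma adjusted p = 9.31e-05). Its library values relative to the T0 mean were -0.51 and -0.73 in untreated and -0.05 and 0.05 at T0. TNFAIP1, an adaptor of CUL3 ubiquitin ligases, followed with -0.47 ± 0.19 (n = 4, limma adjusted p = 0.00049), and its untreated libraries stood at -0.34 and -0.51. SDF2, a chaperone partner in the endoplasmic reticulum, came next with -0.36 ± 0.23 (n = 4, limma adjusted p = 0.000702). In each of these genes both untreated libraries lay below both T0 libraries. At the other end of the 43, TAOK1, a kinase of the STE20 family upstream of stress-activated MAP kinases, had an L2FC of 0.06 ± 0.07 (n = 4, limma adjusted p = 0.209). DHRS13, a short-chain dehydrogenase, had -0.03 ± 0.17, and BLMH, the cytosolic protease bleomycin hydrolase, had -0.05 ± 0.20 (n = 4 each), and neither passed the test.

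Since nearly all genes lay below the non-targeting guides in this comparison, the same values were also set against the median of all genes. Then SUPT6H was lower by that measure (-0.38, limma adjusted p = 0.00392), TAOK1 was higher (0.23, limma adjusted p = 0.00849) and the other 41 genes did not pass, TNFAIP1 among them (-0.30, limma adjusted p = 0.0503). Over all genes 9.98% were lower and 1.36% higher on this scale. Of the single guides, 4 of 166 fell from T0 to untreated and 1 rose by the quasi-likelihood test of edgeR, which is set against all guides, beside 5.93% and 1.19% of all targeting guides. The 4 were guides to SUPT6H, NSRP1, SDF2 and SEZ6, and the higher one was a guide to TAOK1.

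Under the drugs nearly all of the 17q11.2 genes lay at lower values than without drug. No p is given for a gene in these comparisons. Against untreated, the median L2FC of the 43 genes was -0.21 under erlotinib, from -0.68 to 0.01, and -0.25 under osimertinib, from -0.74 to 0.07. The medians over all genes were 0.00 and 0.01. Under erlotinib 42 of the 43 values were below zero, all but SUPT6H, and under osimertinib 41 were, all but SUPT6H and TAOK1. Under erlotinib 16 were called lower and none higher, with 2.25% of all genes called lower and 4.88% called higher. Under osimertinib 21 were called lower and none higher, with 4.83% and 5.31% of all genes. The erlotinib count dropped to between 6 and 10 when either erlotinib library or either untreated library was left out.

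Counted guide by guide, the shift is no separate support, since the gene values known at the choice were medians over these guides. Of the 166 guides, 147 (88.6%) had a value below zero under erlotinib and 151 (91.0%) under osimertinib, beside 49.0% and 48.0% of all targeting guides. Every kept guide was below zero in 27 of the 43 genes under erlotinib and in 32 under osimertinib, beside 12.3% and 12.6% of all genes. Single guides called lower by edgeR numbered 17 under erlotinib and 33 under osimertinib, and none was called higher, beside 1.05% and 2.33% of all targeting guides called lower and 1.76% and 2.41% called higher. Spearman's rho between a gene's value and its place in the order along the band was -0.04 under erlotinib and 0.02 under osimertinib over the 43 genes. The values against untreated thus showed no slope from one end of the band to the other, as a description with no test. In untreated against T0 rho was 0.25, and against T0 it was 0.19 under erlotinib and 0.20 under osimertinib.

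**Figure D1:**
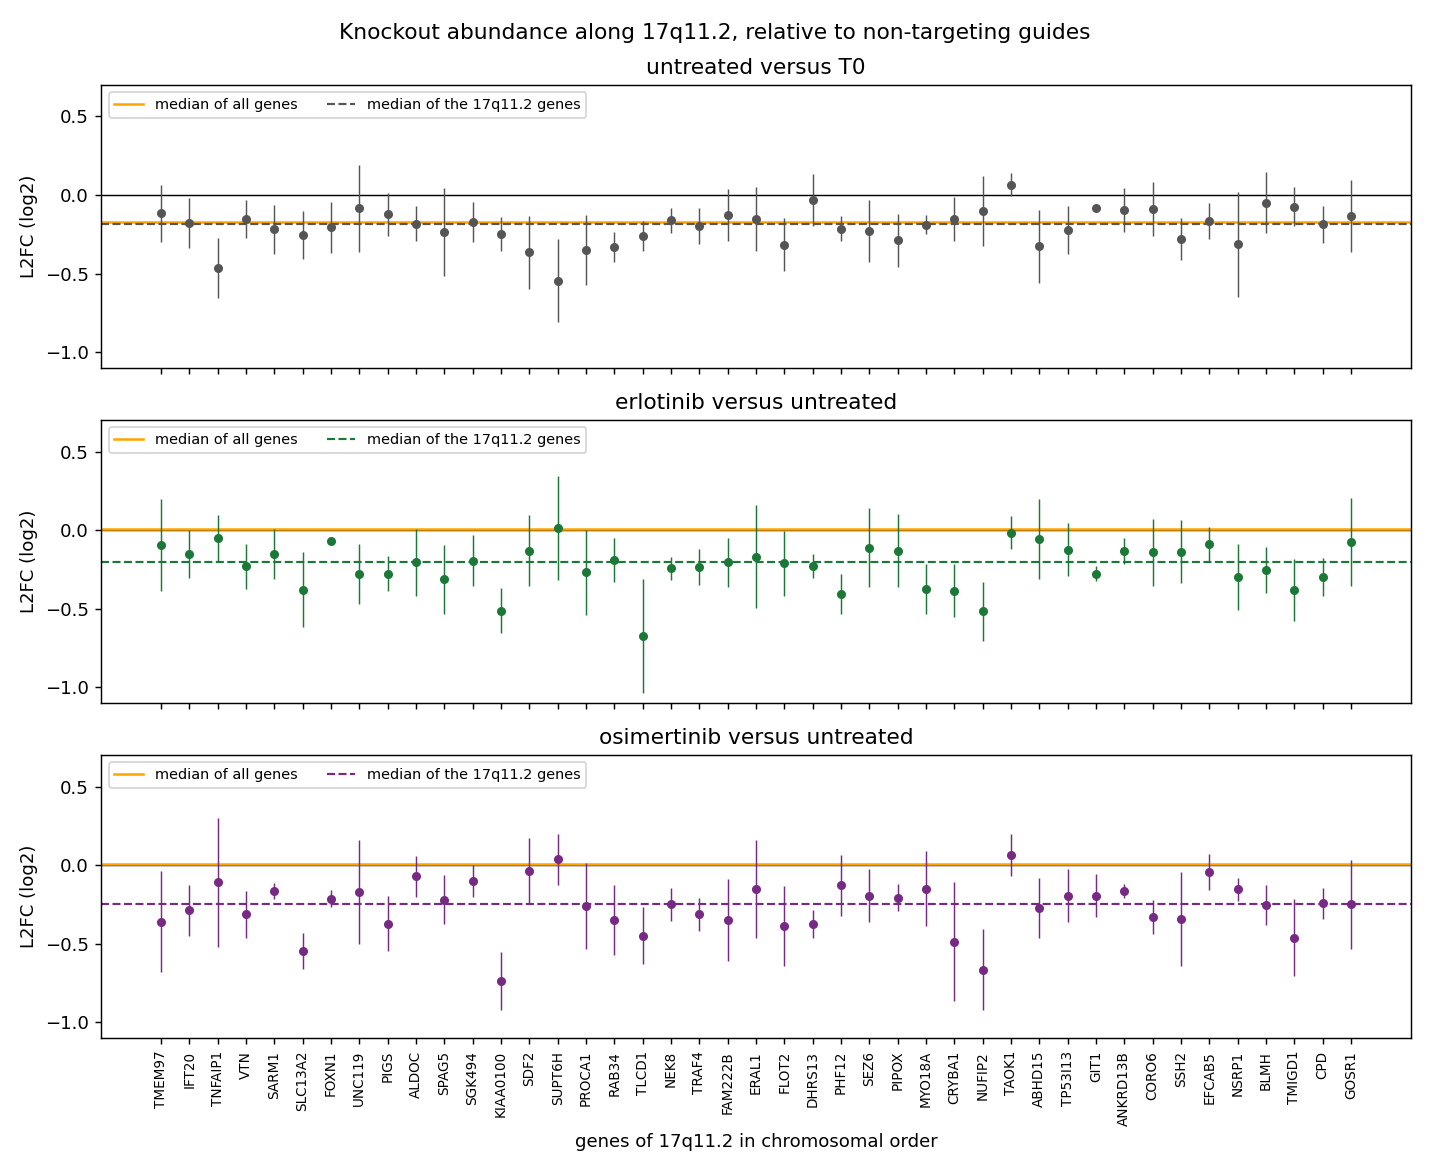
L2FC relative to non-targeting guides (y axis, log2) of the 43 genes in chromosomal order (x axis) for untreated against T0 and each drug against untreated. Points are gene medians over guides, bars are the SD between guides, the orange line is the median of all genes and the dashed line the median of the 43 genes. In untreated the lines nearly coincide at -0.17 and -0.19, whereas under erlotinib and osimertinib the dashed line lies at -0.21 and -0.25 and the orange line at 0.00 and 0.01.

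The values per library describe the same shift. They come from the libraries that gave the L2FC known at the choice, so they add no separate support. Relative to the T0 mean, the median of the 43 genes was -0.19 and -0.18 in the untreated libraries, -0.37 and -0.40 under erlotinib, and -0.42 and -0.45 under osimertinib. Over all genes it was between -0.17 and -0.14 in all 6 libraries. All 4 drug libraries therefore had lower medians of the 17q11.2 genes than both untreated libraries, and the drug groups did not overlap with untreated. In 37 genes both erlotinib libraries were below both untreated libraries, and in 36 both osimertinib libraries were, beside 20.6% and 22.9% of all genes. No gene had both erlotinib libraries above untreated and 1 (TAOK1) had both osimertinib libraries above, beside 30.4% and 28.6% of all genes. Taken by replicate number, the medians against untreated were -0.20 and -0.21 for erlotinib and -0.24 and -0.26 for osimertinib.

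**Figure D2:**
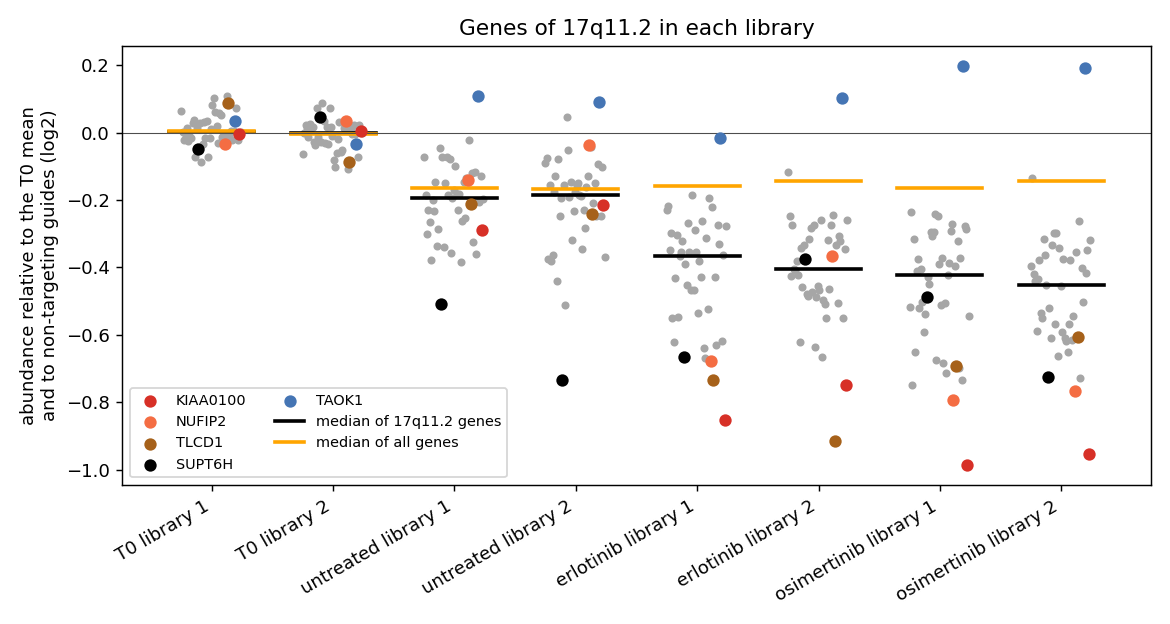
Abundance on the log2 scale (y axis; the mean of T0 and the non-targeting guides are both at zero) of each of the 43 genes in each of the 8 libraries (x axis), with 5 genes coloured. Black bars are medians of the 43 genes and orange bars medians of all genes; the black bar lies between -0.19 and -0.18 in the untreated libraries and between -0.45 and -0.37 in the 4 drug libraries, while the orange bar stays between -0.17 and -0.14 in all 6.

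Against T0, which takes in all change over the 72 h in drug, the median was -0.40 under erlotinib and -0.42 under osimertinib, and -0.14 over all genes in both. Of the 43 genes, 41 were called lower under erlotinib, beside 41.0% of all genes, and TMEM97 and TAOK1 were not called. Under osimertinib 42 were called lower, beside 43.9% of all genes, and TAOK1 was called higher, beside 1.03%. This call of TAOK1 was lost without either osimertinib library, without the second T0 library and with the empirical test against non-targeting guides. None was called higher under erlotinib, beside 0.304%. Libraries of the drug lay below T0 without overlap in 42 genes for either drug, beside 73.8% of all genes for erlotinib and 69.7% for osimertinib, and above T0 in none and in 1, beside 2.87% and 4.71%. Of the single guides 28 were called lower and none higher under erlotinib, beside 5.38% and 1.38% of all targeting guides, and 49 were called lower and 3 higher under osimertinib, beside 8.99% and 4.57%. These comparisons share the T0 libraries with the untreated comparison, and the drug comparisons share the untreated libraries, so the counts are not independent of each other.

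The genes came from groups with unlike roles, and every group had a median below zero under both drugs. A list of 8 tested genes known for their role in tissues other than lung held vitronectin (VTN, made by liver), FOXN1 (thymus), SEZ6 (brain), CRYBA1 (lens), SLC13A2 and PIPOX (kidney), TMIGD1 (kidney and intestine) and CORO6 (muscle). Their medians were -0.18 in untreated against T0, -0.19 under erlotinib and -0.32 under osimertinib against untreated, and all 8 were below zero under both drugs. The list was chosen with earlier results known and is not complete, so nothing is read from how its medians rank. ALDOC, SARM1 and UNC119 could also be placed in it. Against untreated they had -0.20, -0.15 and -0.28 under erlotinib and -0.07, -0.16 and -0.17 under osimertinib. Among the 8, CRYBA1, a crystallin of the eye lens, had -0.38 ± 0.17 under erlotinib and -0.49 ± 0.38 under osimertinib (n = 4). Its library values were -0.23 and -0.18 in untreated, -0.43 and -0.67 with erlotinib and -0.69 and -0.61 with osimertinib, so that the drug groups lay below untreated without overlap. SLC13A2, a citrate transporter, had -0.38 ± 0.24 under erlotinib and -0.54 ± 0.11 under osimertinib (n = 3), the third lowest value under osimertinib. Olfactory receptors, which a lung cell is not known to need, had medians of -0.13 in untreated against T0, -0.02 under erlotinib and -0.01 under osimertinib over 327 genes.

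The 11 genes of membrane traffic, cilia and glycolipid anchors had medians of -0.21 under erlotinib, with 5 called lower, and -0.35 under osimertinib, with 7 called lower. They include IFT20, a carrier of ciliary cargo, the GTPase RAB34, the Golgi SNARE GOSR1 and PIGS, a subunit of the transamidase that attaches glycolipid anchors to proteins. The 12 genes of signalling and the cytoskeleton had medians of -0.17 under erlotinib and -0.18 under osimertinib, with 4 called lower in each. Among them are the adaptor TRAF4, the scaffold GIT1, the cofilin phosphatase SSH2 and the spindle protein SPAG5. The 5 genes of transcription, RNA and translation had medians of -0.30 and -0.15, with 3 called lower under erlotinib and 1 under osimertinib. The 6 genes of metabolism and transport had -0.22 and -0.26, with 1 and 3 called lower, and SLC13A2 and PIPOX count in this group as well as among the genes of other tissues. The 3 genes of little known function, FAM222B, PROCA1 and EFCAB5, had medians of -0.21 and -0.26, with none and 2 called lower. No gene of any of these groups was called higher against untreated, beside 4.88% of all genes under erlotinib and 5.31% under osimertinib. Called lower were 37.2% and 48.8% of the 43 genes, and 2.25% and 4.83% of all genes. With groups this small, nothing is read from the counts per role.

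A gene was taken to stand out from its neighbours where it lay more than 0.3 from the median of the other 17q11.2 genes and all its guides lay on the same side of that median. Over all genes, set against their own median, this held for 6.42% in untreated against T0, 3.35% and 3.96% in erlotinib and osimertinib against untreated, and 6.68% and 9.61% against T0. It held for SUPT6H below its neighbours in untreated against T0, and for KIAA0100, NUFIP2 and TAOK1 under the drugs. In the same order this made 1 (2.33%), 1 (2.33%), 3 (6.98%), 2 (4.65%) and 3 (6.98%) of the 43 genes, below the share of all genes in each comparison except osimertinib against untreated, so that nothing is read from the number. The nearest genes on either side of the limit were KIAA0100 under erlotinib at -0.31 from the others and TAOK1 under osimertinib at 0.32, which stood out, and SLC13A2 under osimertinib at -0.30 and SUPT6H under osimertinib at 0.29, which did not.

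KIAA0100 encodes a bridge-like protein that carries lipids between membranes. At T0 its library values were -0.01 and 0.01, and the untreated libraries stood at -0.29 and -0.22. The erlotinib libraries had -0.85 and -0.75 and the osimertinib libraries -0.99 and -0.95. All 4 drug libraries lay below both untreated libraries, and KIAA0100 was the lowest of the 43 genes in both osimertinib libraries and in the first erlotinib library. Its L2FC was -0.51 ± 0.14 under erlotinib and -0.74 ± 0.18 under osimertinib against untreated (n = 4), and -0.79 ± 0.20 and -1.02 ± 0.26 against T0. All 4 guides were lower, and the guide with the largest counts at T0 had 751 and 801 reads there, 643 and 759 without drug, 377 and 448 with erlotinib and 407 and 405 with osimertinib. In untreated against T0, KIAA0100 fell by 0.25 on the log2 scale (L2FC -0.25 ± 0.11, n = 4, limma adjusted p = 0.00584), close to its neighbours. Against untreated under erlotinib it no longer met the rule without the first erlotinib library or without the second untreated library, and against T0 under erlotinib it did not without the first erlotinib library. Against T0 under osimertinib, KIAA0100 and NUFIP2 met the rule, and 1 gene in place of 2 stood out below without the second T0 library.

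NUFIP2 encodes an RNA-binding partner of the fragile X protein FMRP. It stood at -0.14 and -0.04 in the untreated libraries, -0.68 and -0.36 with erlotinib and -0.79 and -0.77 with osimertinib, and both drug groups were below untreated without overlap. Its L2FC against untreated was -0.52 ± 0.19 under erlotinib and -0.66 ± 0.26 under osimertinib (n = 4). Under erlotinib 3 of the 4 guides lay below the median of the neighbours, and under osimertinib all 4 did. NUFIP2 did not pass the test in untreated against T0, with -0.10 ± 0.22 (n = 4, limma adjusted p = 0.378).

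TLCD1, a membrane protein that limits membrane fluidity, had the lowest value under erlotinib against untreated, -0.68 ± 0.36 (n = 4), and -0.45 ± 0.18 under osimertinib. Its library values were -0.21 and -0.24 in untreated, -0.73 and -0.92 with erlotinib and -0.69 and -0.61 with osimertinib. It did not meet the rule under erlotinib because its guides disagreed. Of its guides, 3 had values between -0.88 and -0.67 and the remaining guide had -0.05, and that guide had the largest counts, 387 and 420 reads in untreated and 330 and 368 under erlotinib.

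TAOK1 lay above the median of its neighbours in every comparison and met the rule in osimertinib against untreated and in both drugs against T0. Its library values were 0.11 and 0.09 in untreated, -0.02 and 0.10 with erlotinib and 0.20 and 0.19 with osimertinib. The osimertinib libraries lay above the untreated ones, and the erlotinib libraries overlapped with them. Its L2FC was -0.02 ± 0.10 under erlotinib and 0.07 ± 0.13 under osimertinib against untreated (n = 4), and 0.09 ± 0.06 and 0.15 ± 0.07 against T0, where it lay 0.50 and 0.57 above the median of the other genes. Its value against T0 under erlotinib was -0.01 without the second erlotinib library. All 4 guides were above zero under osimertinib against T0, and the one with the largest counts had 904 and 925 reads at T0 and 1009 and 1225 under osimertinib. The other kinases of the TAO family lie elsewhere in the genome. TAOK2 had 0.45 ± 0.39 under erlotinib and 0.61 ± 0.46 under osimertinib (n = 3), and TAOK3 had 0.13 ± 0.22 and 0.17 ± 0.10 (n = 4), against untreated.

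SUPT6H, which fell the most without drug, had values near zero against untreated, 0.01 ± 0.33 under erlotinib and 0.04 ± 0.16 under osimertinib (n = 4). Its libraries stood at -0.67 and -0.38 under erlotinib and -0.49 and -0.72 under osimertinib, a range that overlapped with -0.51 and -0.73 in untreated. It no longer met the rule in untreated against T0 without the second untreated library. TNFAIP1 and SDF2, next to it in the loss without drug, were each among the 3 highest genes under only 1 drug. TNFAIP1 had -0.05 ± 0.15 under erlotinib, among the 3 highest, and -0.11 ± 0.41 under osimertinib. SDF2 had -0.13 ± 0.23 under erlotinib and -0.04 ± 0.21 under osimertinib, among the 3 highest (n = 4 each). PROCA1 and RAB34, which followed in that loss, had -0.27 and -0.19 under erlotinib and -0.26 and -0.35 under osimertinib. These values share the untreated libraries with the comparison in which the genes fell.

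**Figure D3:**
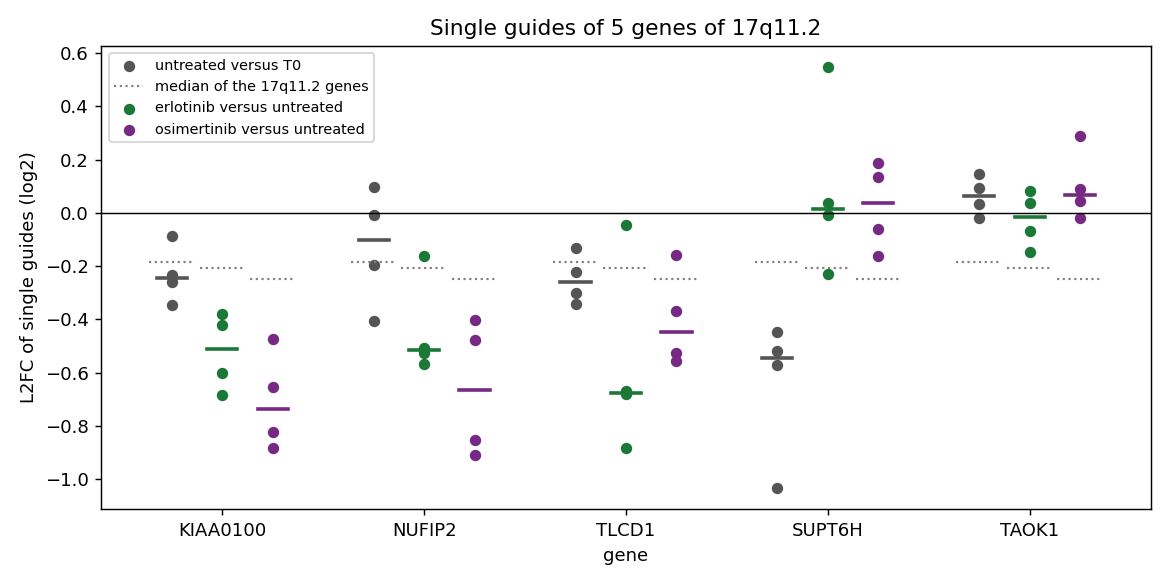
L2FC of single guides relative to non-targeting guides (y axis, log2) for 5 genes (x axis) in untreated against T0 and each drug against untreated. Points are guides, bars are gene medians and dotted lines the medians of the 43 genes; all 4 guides of KIAA0100 lie below the dotted lines under both drugs, 1 guide of TLCD1 lies at -0.05 under erlotinib, and all guides of TAOK1 lie above the dotted lines.

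Genes that work with members of the group but lie apart from them were examined on the same scales. For reference, 46.3% of all genes fell in untreated against T0, with a median of -0.17. Against untreated, 2.25% and 4.83% of all genes were called lower under erlotinib and osimertinib, and 4.88% and 5.31% higher. The 5 tested partners of SUPT6H in transcription elongation (IWS1, SSRP1, SUPT16H, SUPT4H1 and SUPT5H) all fell in untreated against T0, with a median of -0.95. Against untreated their median was 0.23 under each drug, with SSRP1 and SUPT4H1 called higher in both and none called lower. ERAL1 helps to assemble the small subunit of the mitochondrial ribosome, and 16 of 27 proteins and partners of that subunit fell in untreated against T0, with a median of -0.23. Against untreated the 27 had medians of 0.12 under erlotinib and 0.05 under osimertinib. None was called lower, and 2 were called higher under erlotinib and none under osimertinib. ERAL1 had -0.17 ± 0.33 and -0.15 ± 0.31 (n = 4) and was not called. Its guides disagreed, with a guide at 0.41 under erlotinib and 0.37 under osimertinib and the others below zero. The 3 tested partners of PIGS in the transamidase (GPAA1, PIGK and PIGT) had medians of -0.03 and -0.04 with none called, and PIGS itself had -0.28 ± 0.11 and -0.37 ± 0.18 (n = 4). The 4 tested Golgi SNARE partners of GOSR1 had medians of -0.11 and -0.06, and YKT6 was called lower under osimertinib (-0.38 ± 0.14, n = 4).

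The lower values were not limited to the chosen genes. TMEM199 and SLC6A4, which lie between them and were not among the 46, had -0.09 ± 0.27 and -0.19 ± 0.19 under erlotinib and -0.19 ± 0.19 and -0.25 ± 0.11 under osimertinib (n = 4 each). The 46 tested genes just before TMEM97 had medians of -0.11 under erlotinib and -0.15 under osimertinib, with 5 and 11 called lower. The 46 just after GOSR1 had -0.14 in both, with 5 and 15 called lower and 2 called higher in each. Over all genes 2.25% and 4.83% were called lower and 4.88% and 5.31% higher. At the borders, TMEM97 had -0.09 ± 0.29 and -0.36 ± 0.32 under erlotinib and osimertinib, and NLK just outside it had -0.08 ± 0.06 and -0.27 ± 0.09 (n = 4). GOSR1 had -0.08 ± 0.28 and -0.25 ± 0.28, and CRLF3 just outside it had -0.33 ± 0.15 and -0.43 ± 0.23 (n = 4). NLK thus lay within the SD between guides of TMEM97, and CRLF3 was lower than GOSR1, with 1 gene on each side of a border. The nearest 10 tested genes before TMEM97 had medians of -0.12 under erlotinib and -0.16 under osimertinib. The nearest 10 after GOSR1 had -0.12 and -0.11. All these medians were nearer zero than the -0.21 and -0.25 of the 43 genes, which were chosen with these values known, so nothing is read from that difference. NF1, a RAS-inactivating tumour suppressor at the sixth place after GOSR1 and named here after its values were seen, had 0.39 ± 0.09 and 0.35 ± 0.08 (n = 3), opposite in sign to nearly all genes around it.

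The rest of chromosome 17, 977 genes, had medians of -0.06 under each drug against untreated and -0.18 in untreated against T0. It was cut into 20 full blocks of 46 tested genes, both flanks described above among them. Block medians were from -0.19 to 0.04 under erlotinib and from -0.21 to 0.08 under osimertinib. None was as low as the -0.21 and -0.25 of the 17q11.2 genes. Those genes were chosen with these values known, so nothing is read from that rank. Of the 20 blocks, 16 and 15 had a median below zero. From the third block before the genes to the eighth block after them, medians were between -0.19 and -0.06 under erlotinib and between -0.21 and -0.08 under osimertinib. From the ninth block after them onward all full blocks were between -0.02 and 0.02 and between -0.03 and 0.03. In running medians over 21 genes the lowest value under erlotinib, -0.23, was centred on ETV4 and that under osimertinib, -0.28, on MED24, both outside the chosen genes, and against T0 the lowest was centred on TRAF4, one of the genes, under erlotinib (-0.47) and on RPL23, outside them, under osimertinib (-0.48). In untreated against T0 the medians of the 20 blocks were from -0.24 to -0.13.

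**Figure D4:**
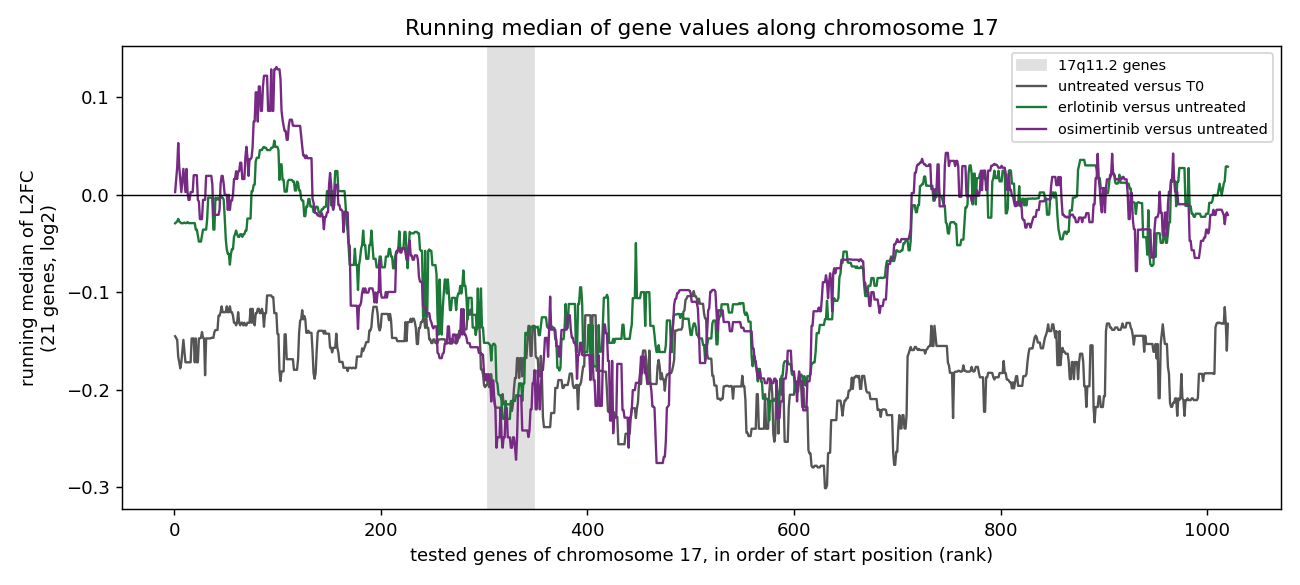
Running median over 21 tested genes of the L2FC relative to non-targeting guides (y axis, log2) along chromosome 17, with genes in order of start position (x axis, rank), for untreated against T0 and each drug against untreated. The grey band marks the 17q11.2 genes; both drug lines lie well below zero over the band and over a long stretch after it, reach -0.23 (erlotinib) and -0.28 (osimertinib) outside the band, and return to around zero toward the end of the chromosome.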

How the data were processed

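The authors deposited raw counts of reads per guide, with no normalization, for 8 libraries in 4 groups. Libraries were made by PCR on genomic DNA, molecular identifiers are not mentioned, and precision from counts therefore covers counting error only. Per the methods, trimmed reads were aligned to TKOv3, tolerating a single mismatch, with Bowtie2 according to the methods and Bowtie 1.3.1 according to the submitters' processing notes. A spreadsheet had altered 50 of 18089 gene names, of which 49 were restored and 1 (4 guides) was left out. The lowest 5% of guides by mean normalized count (under 46.0 reads) were removed, leaving 67531 of 71086 guides and 138 of 142 non-targeting guides.

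A quasi-likelihood model with TMM scaling was fitted to all libraries (edgeR 4.0.16, R 4.3.3), with 4 residual degrees of freedom and a common dispersion of 0.00537. Gene values are medians over at least 2 guides minus the non-targeting median. Calls come from limma 3.58.1 on gene values per library (medians over guides of log2 CPM with a prior count of 1), with Benjamini-Hochberg adjustment over 17761 genes at 0.05. The pipeline was tested on simulated data. Gene order and older symbols came from the RefSeq table (GRCh38.p14), which placed 17483 tested genes, and guide sequences were not used. The genes and lists were chosen with earlier results of these data known. Any of the 46 genes could be named, those that stood out by the rule in full, and other genes came from the partner lists or from the borders, except NF1, RPL23, ETV4 and MED24, which were named after their values were seen. Alternatives were another scaling, DESeq2 1.42.0, summed counts, an empirical test, no filter, another reference, means over guides, another prior count, a replicate block and leaving out each library. A second osimertinib dose that the labels' treatment protocol names was not analysed here.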

Additional observations from a re-analysis of the deposited data

How the results depend on the processing

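Set against the median of all genes in place of non-targeting guides, the median of the 17q11.2 genes moved to -0.016 in untreated against T0, with 1 called lower and 1 called higher, to -0.25 in erlotinib against T0, with 25 called lower, and to -0.28 in osimertinib against T0; by construction this removes the shift of all genes. With means over guides the medians were -0.21 in untreated against T0 and -0.22 in erlotinib against untreated, and with counts summed over guides they were -0.19 in erlotinib against untreated and -0.38 in erlotinib against T0. With the empirical test 0 genes were called higher in osimertinib against T0. Leaving out each library in turn, the median ranged from -0.19 to -0.18 in untreated against T0, from -0.22 to -0.20 and from -0.28 to -0.22 in erlotinib and osimertinib against untreated, and from -0.40 to -0.37 and from -0.47 to -0.42 against T0. The counts called lower ranged from 9 to 28, from 6 to 19, from 16 to 22, from 35 to 42 and from 41 to 42 in the same order, single guides called lower in untreated against T0 from 1 to 4, and genes called higher in osimertinib against T0 from 0 to 1. TAOK1 in erlotinib against T0 ranged from -0.0097, without erlotinib replicate 2, the only leave-out that put it below zero, to 0.11. The cause of these shifts was not tested.

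Same-numbered libraries did not deviate together (correlations from -0.0035 to 0.016), so the numbers were not taken to pair the libraries. With the replicate block, 26, 14, 21, 41 and 42 genes were called lower in the same order, and SUPT6H kept its call in untreated against T0 (-0.55). Another scaling, DESeq2 and no filter on low counts moved no median beyond the spread between libraries. The prior count does not enter the medians, so they could not move with it. Another scaling, another prior count and no filter on low counts moved no count of calls by over 1.5 times. Genes were not called with DESeq2. With 2 libraries a group the spread rested on 4 residual degrees of freedom, which limits what could be called for a single gene.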
